A study of Mus musculus with 17 samples.

Results

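The genes described here are 6 genes of ketone body metabolism and of the fuel choice that goes with it: Bdh1, Bdh2, Oxct1, Acat1, Aacs and Pdk4. They were taken by symbol from the 55487 mouse Ensembl genes of the deposited count table, and each symbol matched 1 row. Sequencing of 3′ ends gave the counts, from kidneys of male mice aged 16 weeks, with 1 library per animal. The 8 db/m controls carry the Lepr db allele opposite a normal copy, and the 9 db/db animals are homozygous for it, going by the genotype codes in the design. All animals share the BKS.Cg background. Lepr db removes the long form of the leptin receptor in every tissue, and homozygous animals become obese and diabetic, so the kidney is exposed to the whole-body state. Groups follow the sample titles; the genotype field of the labels gives the opposite genotype for all 17 animals, and every direction below would turn round if that field were right.

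Ketone bodies are small acids that the liver makes from fatty acids during fasting and in insulin lack, and that other organs burn. In synthesis, thiolases join acetyl units, acetoacetate is formed from the product in the mitochondrion, and Bdh1 reduces it to β-hydroxybutyrate. In use, Bdh1 runs the other way, Oxct1 activates acetoacetate with succinyl-CoA, and Acat1 splits the product into acetyl-CoA for the citric acid cycle. The kidney cortex is known both to burn ketone bodies and to take them back from the urine.

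Libraries held 3256427 to 7627747 gene counts, with 22.02% to 30.6% of them on mitochondrially encoded genes. Markers of the proximal tubule summed to 6720 to 9195 CPM (counts scaled to a common library size of 1e6) in db/m and 7155 to 10370 in db/db, as the kidney label requires. Podocyte and thick ascending limb markers were present in every library. The thick ascending limb sums ran from 1302 to 3146 CPM in db/m and from 853.7 to 2655 in db/db. Lowest in their groups were db/m replicates 8, 2 and 4 (1302, 1372 and 1419 CPM) and db/db replicate 1 (853.7 CPM). Of 6 markers of S3, the last proximal tubule segment, 5 were lower and 1 higher in db/db, with summed levels of 2682 to 3100 CPM in db/m and 1363 to 2109 in db/db. Collecting duct markers were higher in db/db (5 of 5, summed levels of 243 to 858 CPM in db/m and 647 to 1569 in db/db), as were 2 of 4 distal convoluted tubule markers (503 to 770.5 and 712 to 1236 CPM) and 2 of 4 podocyte markers (78.3 to 140.2 and 76.01 to 192 CPM). Adipocyte markers varied within both groups, from 0.460 to 313 CPM in db/m and 1.26 to 314 in db/db, with db/m replicate 8 and db/db replicate 9 at the top. The first principal component of all tested genes but these 6 held 32.8% of the variance, with db/m replicates 4 and 8 and db/db replicates 1 and 8 farthest from their group's median. In bulk tissue, fewer cells of a type and less RNA per cell cannot be told apart.

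The 6 genes were chosen by name as one pathway, with their db/db and db/m levels and fold changes in these libraries already known. Their differences are therefore given as a description, with intervals but no p-values. In the fit across all 12131 tested genes (quasi-likelihood test of edgeR, with a threshold of 0.05 after Benjamini-Hochberg adjustment), 7.39% of genes were called, 3.49% lower and 3.91% higher in db/db. Of the 6 genes, 5 had enough counts to be tested, and 3 of those 5 were called lower and 0 higher. Nothing is read from that share, or from whether any of the 6 was called in a later fit. The median log2 fold change of the 5 was -0.88, against 0.00326 over all tested genes. A negative log2 fold change means a lower level in db/db, and intervals are at the 95% level.

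**Figure D1:**
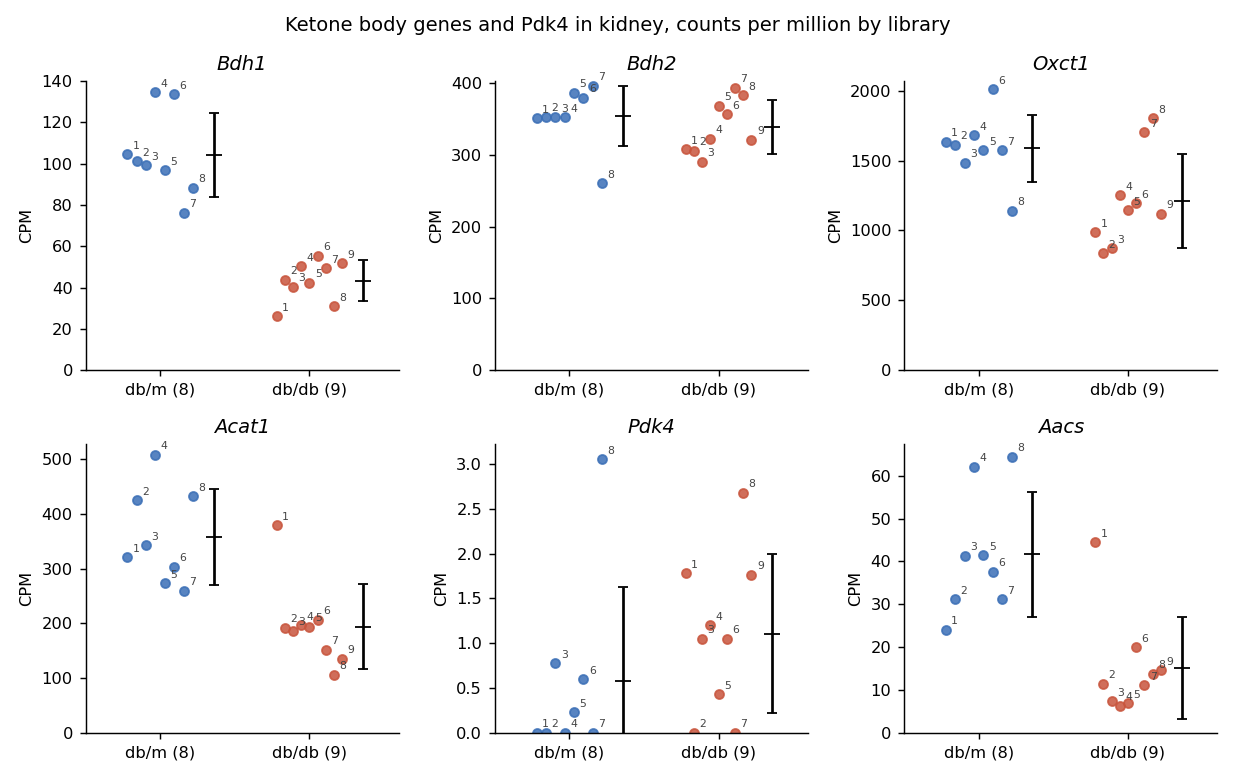
CPM of each gene in each kidney library, db/m in blue and db/db in red, with replicate numbers beside the points and bars for the mean ± SD; each axis starts at 0. Bdh1 separates the groups, Acat1 and Aacs do so but for db/db replicate 1, and Pdk4 stays at or under 3.05 CPM.

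Bdh1, the mitochondrial dehydrogenase that interconverts acetoacetate and β-hydroxybutyrate, was lower in db/db. Its level in db/m ran from 76.3 CPM in replicate 7 over a median of 100.3 to 134.6 in replicate 4. In db/db it ran from 26.2 CPM in replicate 1 over a median of 43.9 to 55.4 in replicate 6. Every db/db library lay below every db/m library, a separation seen in 1.78% of all tested genes in either direction and in 1.05% in this one. The means were 104.4 ± 20.4 CPM in db/m (SD, n = 8) and 43.4 ± 9.72 in db/db (SD, n = 9). This is a log2 fold change of -1.27 (SE 0.15, interval -1.57 to -0.96), or 0.416 times the db/m level. It stayed between -1.32 and -1.20 in the 17 fits that left out 1 library. In the same animals 5 of the 6 S3 markers were lower and 1, Slc5a10, was higher, and the collecting duct markers were higher. The proximal tubule sums given first, for segments S1 and S2, overlapped between the groups. The part of these cell types in the Bdh1, Acat1 and Aacs differences was not tested.

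The promoter windows of the 2 genes with the largest falls are printed to show the sequence around their starts. RefSeq (GRCm38.p6) lists 2 starts for Bdh1, on the plus strand at chr16:31422047-31422346 and chr16:31428503-31428802, and 1 for Aacs, on the plus strand at chr5:125475623-125475922. Each window runs from 250 bases before the start to 50 bases after it. Capitals mark a GC box (GGGCGG) in the second Bdh1 window and a forkhead site (GTAAACA) in the Aacs window, searched on both strands.
Bdh1, first start: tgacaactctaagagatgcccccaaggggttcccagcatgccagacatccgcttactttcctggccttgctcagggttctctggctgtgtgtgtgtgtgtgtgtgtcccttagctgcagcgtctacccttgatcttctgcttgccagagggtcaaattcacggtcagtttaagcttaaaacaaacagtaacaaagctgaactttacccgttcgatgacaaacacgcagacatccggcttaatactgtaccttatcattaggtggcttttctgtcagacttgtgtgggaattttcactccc
Bdh1, second start: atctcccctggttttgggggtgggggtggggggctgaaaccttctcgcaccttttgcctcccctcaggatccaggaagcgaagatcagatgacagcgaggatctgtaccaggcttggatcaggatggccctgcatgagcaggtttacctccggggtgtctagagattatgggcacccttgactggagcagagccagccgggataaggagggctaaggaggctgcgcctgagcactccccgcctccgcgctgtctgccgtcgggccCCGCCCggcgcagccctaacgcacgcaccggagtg
Aacs: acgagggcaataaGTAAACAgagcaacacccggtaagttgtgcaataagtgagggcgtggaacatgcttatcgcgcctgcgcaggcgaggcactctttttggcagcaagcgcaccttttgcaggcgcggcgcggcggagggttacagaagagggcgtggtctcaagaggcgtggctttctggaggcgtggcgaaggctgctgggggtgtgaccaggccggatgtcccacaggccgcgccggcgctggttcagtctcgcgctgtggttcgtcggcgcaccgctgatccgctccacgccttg
The GC box is present in 35.7% of 32851 promoter windows of this length and the forkhead site in 3.65%. The nuclear receptor half-site AGGTCA, present in 16.3% of windows, and the E-box CACGTG, in 7.15%, matched neither gene, and nor did CCAAT (37.4%), TATAAA (13.6%) or a direct repeat of the half-site with 1 base between (0.0396%). None of these motifs overlapped another in the 3 windows. Counts of 3′ ends do not show which Bdh1 start was used. The table had windows for 5 of the 6 genes.

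Oxct1, the succinyl-CoA transferase that activates acetoacetate and so commits it to being burnt, was not called. It is the enzyme that liver lacks and ketone-burning organs have. Levels in db/m ran from 1142 CPM in replicate 8 over a median of 1595 to 2011 in replicate 6, and in db/db from 838 in replicate 2 over a median of 1147 to 1804 in replicate 8. Of the db/db libraries, 7 lay between 838 and 1254 CPM, while replicates 7 and 8 were at 1702 and 1804. The groups overlapped, with db/db replicates 4, 5, 6, 7 and 8 within the db/m range. This is a log2 fold change of -0.39 (SE 0.15, interval -0.70 to -0.08), from means of 1590 ± 239 and 1213 ± 338 CPM (SD, n = 8 and 9). Without db/db replicate 8 it was -0.48 (SE 0.14), and over the 17 fits that left out 1 library it ran from -0.48 to -0.33.

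Acat1, the mitochondrial thiolase that splits acetoacetyl-CoA and also works in isoleucine breakdown, was lower in db/db. Levels in db/m ran from 260.1 CPM in replicate 7 over a median of 332 to 508 in replicate 4. In db/db they ran from 106 CPM in replicate 8 over a median of 193 to 379 in replicate 1. Apart from db/db replicate 1, every db/db library (at most 207 CPM) lay below every db/m library. The means were 359 ± 87.9 CPM in db/m (SD, n = 8) and 194 ± 77.0 in db/db (SD, n = 9), a log2 fold change of -0.88 (SE 0.20, interval -1.29 to -0.48). Without db/db replicate 1 it was -1.06 (SE 0.15).

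Aacs, the cytosolic synthetase that turns acetoacetate into acetoacetyl-CoA for lipid synthesis and so bypasses the mitochondrion, was lower in db/db by the largest fold of the 5 tested genes. Levels in db/m ran from 24.1 CPM in replicate 1 over a median of 39.4 to 64.4 in replicate 8. In db/db they ran from 6.30 CPM in replicate 4 over a median of 11.5 to 44.4 in replicate 1. As for Acat1, db/db replicate 1 was the only db/db library inside the db/m range, and the next highest was at 19.9 CPM. The means were 41.7 ± 14.5 and 15.1 ± 11.8 CPM (SD, n = 8 and 9), a log2 fold change of -1.46 (SE 0.32, interval -2.12 to -0.79), and -1.86 (SE 0.24) without db/db replicate 1. The highest db/m library for Aacs was also the richest in adipocyte markers; without it and db/db replicate 9 the log2 fold change was -1.33 (SE 0.34).

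Bdh2, a cytosolic dehydrogenase of the same enzyme class as Bdh1 that has been linked to ketone use and to iron binding, differed little between the groups. Levels ran from 261 to 396 CPM in db/m (median 353) and from 290.4 to 394 in db/db (median 323), and the ranges overlapped. The means were 354 ± 41.8 CPM in db/m (SD, n = 8) and 339 ± 37.3 in db/db (SD, n = 9). The log2 fold change was -0.06 (SE 0.10), and its interval of -0.26 to 0.14 leaves room for a level between 0.834 and 1.10 times that of db/m. The lowest library of all was db/m replicate 8.

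Pdk4, a kinase that shuts pyruvate dehydrogenase off when fat is the fuel, was at the limit of detection. In all it had 24 counts in db/m, of which replicate 8 gave 16, and 50 counts in db/db. No count was seen in 4 db/m and 2 db/db libraries, where 3 counts would correspond to 0.378 to 0.924 CPM over all 17 libraries. The gene was too low to be tested with the rest. In a fit of all 25107 genes with any count its log2 fold change was 0.90 (SE 0.73, interval -0.58 to 2.39), and without db/m replicate 8 it was 2.15 (SE 0.76). By limma-voom on all libraries it was 1.54 (SE 0.71). The estimate thus depended on db/m replicate 8 and on the method, and a difference was not resolved with these few counts. Pdk4 is also made by fat and muscle. Db/m replicate 8 (16 counts, 3.049 CPM) and db/db replicate 9 (14 counts, 1.765 CPM) were the libraries richest in adipocyte markers. Db/db replicates 8 (13 counts, 2.678 CPM) and 1 (8 counts, 1.778 CPM) had adipocyte marker sums of 6.592 and 23.33 CPM. The libraries richest in muscle markers, db/m replicates 1 and 7 (sums of 283.5 and 213.6 CPM), had 0 Pdk4 counts. The part of such cells in the Pdk4 counts was not tested.

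**Figure D2:**
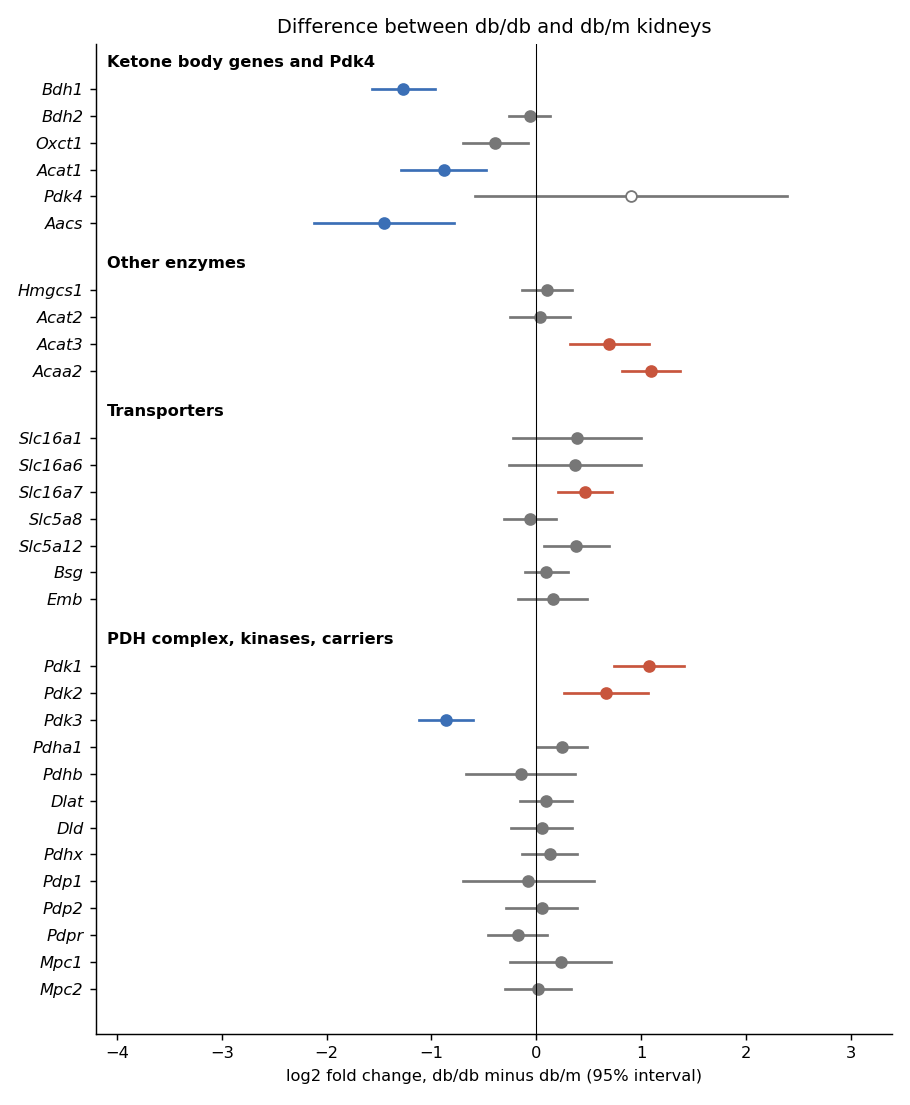
Log2 fold change (db/db minus db/m) with its 95% interval for the 6 genes and for the tested genes of 3 lists around them, blue where called lower, red where called higher, grey where not called, and open for Pdk4, which was too low to test. Bdh1, Acat1 and Aacs lie left of 0, while Acaa2, at 1.09, and Pdk1, at 1.07, lie right of it.

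Further enzymes of ketone body synthesis and use were taken as a list of 7 genes, of which 4 could be tested; 2 were higher and 0 lower in db/db, beside 3.91% and 3.49% of all tested genes. The list's median log2 fold change was 0.40. The adjusted p-values here and for the lists below are from edgeR's quasi-likelihood test over all 12131 genes. The lists, too, were chosen with earlier results of these data known, so these p-values are given as a description.

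Acaa2, the thiolase of the last step of mitochondrial fatty acid oxidation, rose from 226 ± 31.5 to 483 ± 112 CPM (SD, n = 8 and 9; log2 fold change 1.09, SE 0.13, edgeR adjusted p = 1.10e-05). Its groups did not overlap, as for 0.734% of tested genes in this direction: the highest db/m library was at 261.5 CPM and the lowest db/db library at 363.6. Acat3, a close copy of the cytosolic thiolase Acat2, was higher by 0.70 (SE 0.18, edgeR adjusted p = 0.0202), from 13.5 ± 4.96 to 21.9 ± 4.15 CPM (SD, n = 8 and 9). Its call ended without db/m replicate 4 (edgeR adjusted p = 0.0535), and reads shared with Acat2 could have been lost or given to either gene. Acat2 was at 0.03 (SE 0.14, edgeR adjusted p = 0.921) and the cytosolic synthase Hmgcs1 of cholesterol synthesis at 0.11 (SE 0.12, adjusted p = 0.653). Oxct2a and Oxct2b, the testis forms of the transferase, had 0 counts in all 17 libraries, and Hmgcll1 had 14 and 18 counts.

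**Figure D3:**
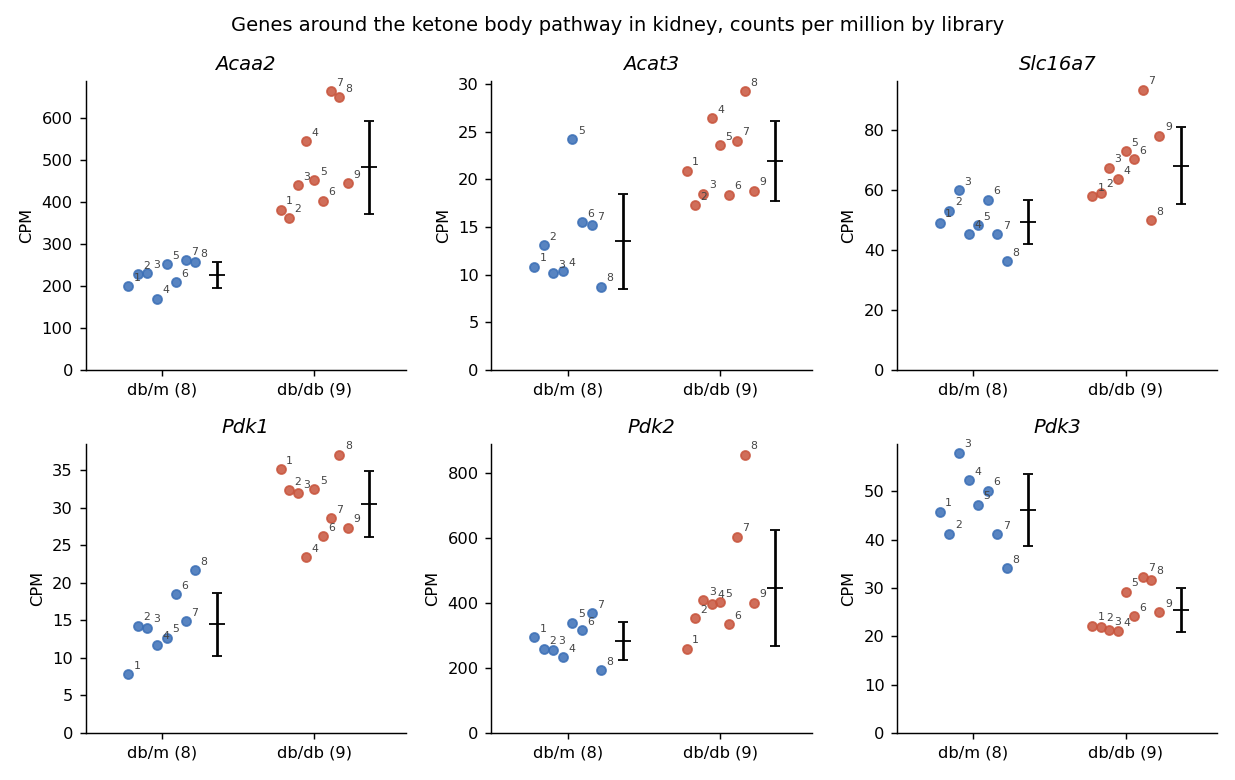
CPM in each kidney library for the thiolases Acaa2 and Acat3, the transporter Slc16a7 and the pyruvate dehydrogenase kinases Pdk1, Pdk2 and Pdk3, with replicate numbers and mean ± SD; each axis starts at 0. Acaa2, Pdk1 and Pdk3 separate the groups, while the groups overlap for Acat3, Slc16a7 and Pdk2.

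Of 10 genes for ketone body transport and sensing, 7 could be tested (list median log2 fold change 0.37). Beside 3.91% and 3.49% of all tested genes, 0 of them were lower and 1 was higher in db/db. That was Slc16a7, a monocarboxylate transporter with high affinity, at 49.4 ± 7.42 and 68.2 ± 12.8 CPM (SD, n = 8 and 9; log2 fold change 0.46, SE 0.12, edgeR adjusted p = 0.0217). The call ended without db/m replicate 4 (edgeR adjusted p = 0.0534). The sodium-coupled transporters that take monocarboxylates up from the urine were at -0.06 (SE 0.12, edgeR adjusted p = 0.816) for Slc5a8 and 0.38 (SE 0.15, adjusted p = 0.132) for Slc5a12. Slc16a1 (0.39, SE 0.29), Slc16a6 (0.37, SE 0.30) and the transporter chaperones Bsg (0.10, SE 0.10) and Emb (0.16, SE 0.16) did not pass either, with edgeR adjusted p-values of 0.489, 0.525, 0.618 and 0.616. The β-hydroxybutyrate receptor Hcar2 had 3 and 11 counts, Ffar3 had 0, and Slc16a3 had 40 and 89, too low to test.

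The 3 pyruvate dehydrogenase kinases other than Pdk4 did not move alike. Pdk1 rose from 14.5 ± 4.20 to 30.5 ± 4.41 CPM (SD, n = 8 and 9; log2 fold change 1.07, SE 0.16, edgeR adjusted p = 0.000122), with db/m at 7.86 to 21.7 and db/db at 23.4 to 37.1. Pdk3 fell from 46.2 ± 7.45 to 25.4 ± 4.52 CPM (log2 fold change -0.86, SE 0.12, edgeR adjusted p = 8.98e-05), with db/m at 34.1 to 58.0 and db/db at 21.0 to 32.3. Neither gene's groups overlapped, as for 0.734% of tested genes in the direction of Pdk1 and 1.05% in that of Pdk3. Pdk2 was called higher (282 ± 57.9 and 446 ± 179 CPM, SD, n = 8 and 9; log2 fold change 0.66, SE 0.19, edgeR adjusted p = 0.0377), with db/db replicate 8 at 856 CPM. Its call held in only 6 of 17 fits that left out 1 library: it ended on leaving out any of db/m replicates 1, 2, 3, 4, 6 and 8, or any of db/db replicates 3, 5, 7, 8 and 9, at 0.48 to 0.74 over all 17. The other 10 tested genes of this list of 13, the subunits, phosphatases and pyruvate carriers, lay between -0.18 and 0.25 and none was called, with a list median of 0.0529.

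A list of 20 genes held PPARα targets and genes of fatty acid oxidation, the process that supplies acetyl units. Of its 19 tested genes, 3 were higher and 0 lower by edgeR (median 0.12), beside 3.91% and 3.49% of all tested genes. Those 3 were hydroxylases and a thioesterase, named below, and not enzymes of mitochondrial fatty acid oxidation. At an unadjusted edgeR p under 0.05, 5 genes of the list were higher and 2 lower. The share of all tested genes at that unadjusted threshold is not given, so nothing is read from the unadjusted counts. Cyp4a14 and Cyp4a10 are fatty acid hydroxylases with close copies, so shared reads could have been lost or given to another copy. Both were higher, Cyp4a14 at 4.49 (SE 0.44, edgeR adjusted p = 7.20e-07) and Cyp4a10 at 1.37 (SE 0.23, edgeR adjusted p = 0.000548). So was the acyl-CoA thioesterase Acot2 (0.78, SE 0.21, edgeR adjusted p = 0.0218), whose call ended without db/m replicate 2 or 4 and with the first principal component as a covariate. Without db/db replicate 8, 1 gene of the list was lower. Ppara itself was at -0.32 (SE 0.21, edgeR adjusted p = 0.405), and Cpt1a at -0.17 (SE 0.11, adjusted p = 0.389).

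In branched-chain amino acid breakdown, which yields acetoacetate from leucine, 1 of 11 tested genes was lower and 0 higher (list median -0.11), beside 3.49% and 3.91% of all tested genes. That gene was Ivd, the isovaleryl-CoA dehydrogenase of leucine, at 210.0 ± 21.5 and 106.1 ± 10.97 CPM (SD, n = 8 and 9; log2 fold change -0.99, SE 0.09, edgeR adjusted p = 2.28e-07). Its groups did not overlap, as for 1.05% of tested genes in this direction. Of 8 tested among 9 genes for the cytosolic use of acetyl units, beside which Aacs works, 0 were higher or lower by edgeR (median -0.017). At an unadjusted edgeR p under 0.05, 3 were higher and 2 lower, and nothing is read from these counts either. DESeq2 called 1 gene lower, as did edgeR without db/db replicate 7. Fasn, fatty acid synthase, was at -0.83 (SE 0.41, edgeR adjusted p = 0.256).

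Variation within the groups, which the difference between them does not enter, was compared for the 5 tested genes in 10 pairs and 2 groups, on log2 CPM. Of the 20 correlations, 10 were positive and 1 passed adjustment. In db/db, Bdh2 and Oxct1 varied together (r = 0.879, exact permutation p = 0.00126, two-sided, adjusted p = 0.0252; rho = 0.90, exact permutation p = 0.00203, adjusted p = 0.0406; n = 9). Db/db replicates 7 and 8 were high for both genes. Of all 17 libraries they had the lowest shares on mitochondrially encoded genes (25.41% and 22.02%). They also had the highest values on the first principal component. Leaving them out gave r = 0.731 (exact permutation p = 0.0649, n = 7), no longer past the threshold with fewer libraries. In db/m the same pair had r = 0.802 (rho = 0.119; exact permutation p = 0.0490, adjusted 0.379, for r and p = 0.793 for rho; n = 8), and 0.416 (exact permutation p = 0.501) without replicates 7 and 8. Bdh1 and Acat1, both lower in db/db, had r = 0.408 in db/m (rho = 0.429; exact permutation p = 0.318 for r and 0.299 for rho; n = 8) and -0.314 in db/db (rho = 0.0333; exact permutation p = 0.401 for r and 0.948 for rho; n = 9). Their adjusted p-values were 0.530 and 0.617. Acat1 and Aacs had r = 0.590 in db/m (rho = 0.548; exact permutation p = 0.128 for r and 0.171 for rho; n = 8) and 0.476 in db/db (rho = 0.133; exact permutation p = 0.188 for r and 0.744 for rho; n = 9), with adjusted p = 0.379 for both. Without the 2 libraries farthest out in Acat1 these were -0.161 and -0.246.

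The principal component named above moved with some of these genes in both groups, in 10 relations chosen after the values were seen. Acat1 fell along it, with r = -0.963 in db/m (rho = -0.952; exact permutation p = 0.000446, adjusted 0.00446, for r and p = 0.00114 for rho; n = 8) and -0.908 in db/db (rho = -0.90; exact permutation p = 0.00257, adjusted 0.0129, for r and p = 0.00203 for rho; n = 9). Without the 2 farthest libraries r was -0.965 (exact permutation p = 0.00556) and -0.688 (exact permutation p = 0.0931, without db/db replicates 1 and 8, n = 7), so the relation in db/db was no longer past the threshold with fewer libraries. Bdh2 rose along it in db/m (r = 0.731, rho = 0.810; exact permutation p = 0.00615, adjusted 0.0205, for r and p = 0.0218 for rho; n = 8), and r was 0.820 (exact permutation p = 0.0389) without replicates 4 and 8. Oxct1 rose along it in db/db (r = 0.753, rho = 0.567; exact permutation p = 0.0173, adjusted 0.0433, for r and p = 0.121 for rho; n = 9), but r was 0.619 (exact permutation p = 0.143) without replicates 1 and 8. Bdh1 and Aacs showed no relation that passed adjustment. Db/m replicates 2, 4 and 8 and db/db replicate 1 lay lowest on the component. Within their groups these libraries also had the lowest thick ascending limb marker sums and the highest Acat1. The part of this segment in the relations was not tested. With the component as a covariate, a setting added after seeing the data, the log2 fold changes were -1.23 (SE 0.15) for Bdh1, -0.57 (SE 0.09) for Acat1, -1.18 (SE 0.27) for Aacs and -0.59 (SE 0.12) for Oxct1. All 4 stayed below 0. Acat1 was thus closer to 0 and Oxct1 farther from it.

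**Figure D4:**
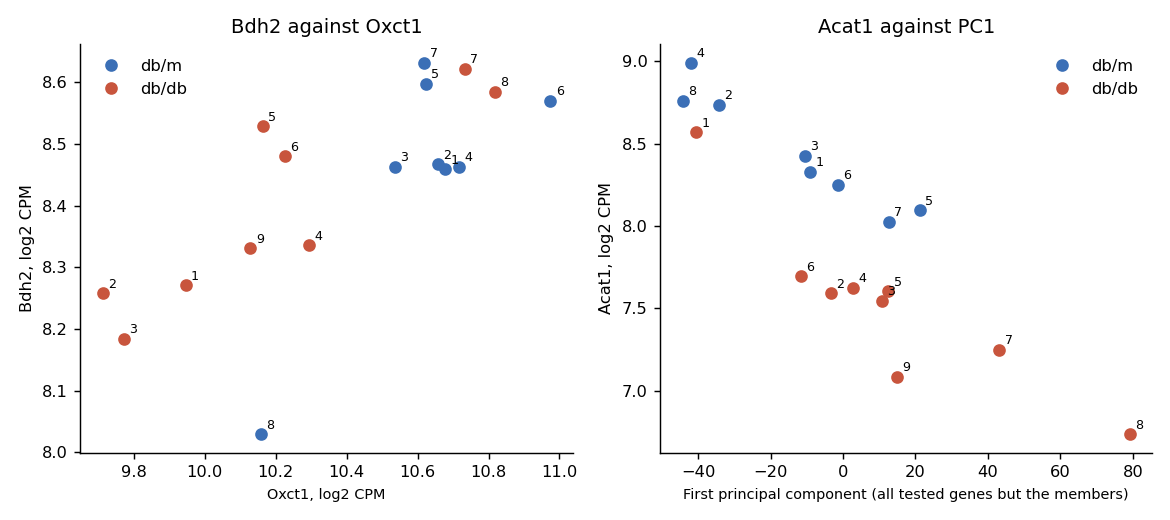
Left, log2 CPM of Bdh2 against Oxct1; right, log2 CPM of Acat1 against the first principal component (no unit), each point 1 kidney library with its replicate number, db/m in blue and db/db in red. Bdh2 and Oxct1 go up together in db/db (r = 0.879, n = 9), and Acat1 goes down along the component in both groups.

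The genes most like each of the 5 in their variation within groups were sought among 6292 others, as a description over 17 libraries. The libraries differed in depth and tissue make-up, which bear on all genes of a library together. The part of such differences in the r values was not tested. Acat1 was most like Efr3a (r = 0.970), Pipox (0.955) and Mocs2 (0.954). Oxct1 was most like Pcdh1 (r = 0.951), Nsdhl (0.948) and Kif12 (0.940). Bdh2 was most like Pecr (r = 0.939), a peroxisomal reductase, Cdhr5 (0.930), a brush border cadherin, and the potassium channel Kcnj16 (0.899). Aacs was most like Col27a1 (r = 0.891), Larp4b (0.855) and Pter (0.825). Bdh1 had the weakest best match, with Becn1 at r = 0.804, Nf2 at 0.791 and Snx5 at 0.783. The 5 lists of 3 shared no gene, and none held another of the 6.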

How the data were processed

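Polyadenylated RNA from 17 mouse kidneys was read at its 3′ ends with a QuantSeq forward kit, per the labels' protocols, so a longer transcript does not give more counts. Cultured cells in plates are mentioned in that protocol, but the samples were treated as kidney, which the tissue field gives. The authors deposited raw counts per gene, per the submitters' processing notes with HTSeq 2.16.2 after alignment by STAR 2.7.3a. The notes list the human build GRCh38 although the identifiers are mouse. The mouse build, annotation, strand setting and treatment of duplicate reads were not given in the sources used here. In GENCODE M21, Bdh1 and Oxct1 are overlapped by opposite-strand genes and Aacs by a microRNA gene, none at the 3′ end. Reads outside genes (19.3%) and ambiguous reads (0.533%) were left out, and 55141 of 55487 identifiers had a symbol.

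Genes with enough counts (filterByExpr, minimum 10) were tested with edgeR 4.0.16 in R 4.3.3 (quasi-likelihood, TMM scaling, 17 libraries, no covariate), and the script was tested on simulated data. CPM values use the same scaling, and log2 CPM a prior count of 2. DESeq2 1.42.0 and limma-voom 3.58.1 were alternatives. Correlations used exact permutation tests, two-sided, adjusted over 20 pairs or 10 relations. No library was a copy of another of its group (lowest chi-square per degree of freedom within a group 3.83). Libraries of different groups were not compared in this way. Nothing in the labels tells how animals were housed or prepared. Library numbers follow the groups, so such a batch cannot be told apart from genotype. The db/m libraries are numbered in sequence, while the db/db libraries are spread over higher numbers with gaps.

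Some genes of the lists, and a further locus at which the groups differ, are not reported here, and list counts leave those genes out. The 6 genes and the lists were chosen with earlier results of these data known. Named are the 6 genes, every tested enzyme and transporter of the first 2 lists, the called genes with the 4 smallest p in the other lists, and the 3 most alike genes whose average log2 CPM was 4 or more. Hmgcll1, Slc16a3, Hcar2, Oxct2a, Oxct2b, Ffar3, Ppara, Cpt1a and Fasn were added after their values were seen.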

Additional observations from a re-analysis of the deposited data

Results flagged for a closer look

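In 9 of 34 groups of libraries examined for these genes, the enzymes and the transporters, 1 library stood far from the rest of its group. The cut-off is one that flags about 1 group in 20 for independent, normally distributed values. CPM values can be skewed and the groups share the same 17 libraries, so the 9 were not compared with chance. Db/m replicate 8 stood apart for Bdh2 (260.8 CPM, next lowest 351.6) and Pdk4 (3.05 CPM, next highest 0.780). Db/db replicate 1 stood apart for Acat1 (379 CPM, next highest 207) and Aacs (44.4 CPM, next highest 19.9), in both at a level found in db/m. Its Bdh1, at 26.2 CPM, was the lowest of all 17 libraries.

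Db/m replicate 6 stood apart for the transporters Slc16a1 (37.9 CPM, next highest 17.9) and Slc16a6 (117 CPM, next highest 54.1). Db/m replicate 5 was high for Acat3 (24.2 CPM, next highest 15.5). Db/db replicate 7 was high for Bsg (269.8 CPM, next highest 202.6) and Emb (9.86 CPM, next highest 7.35).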

How the results depend on the processing

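Bdh1, Acat1 and Aacs were lower in db/db under every alternative run. These runs are refits of the same libraries, for genes chosen with their fold changes known. Whether a chosen gene was called in them is therefore not read as support. Leaving out 1 library at a time gave log2 fold changes of -1.32 to -1.20 for Bdh1, -0.12 to -0.03 for Bdh2, -0.48 to -0.33 for Oxct1, -1.06 to -0.79 for Acat1, 0.65 to 2.15 for Pdk4 and -1.86 to -1.34 for Aacs. It gave 324 to 654 genes higher and 324 to 592 lower, where all libraries gave 474 and 423. Oxct1 was at -0.51 without the 4 libraries farthest out on the first principal component and at -0.59 with that component as a covariate. Both settings were added after seeing the data. With the component as a covariate Hadh turned from -0.04 to 0.43 and Plin2 from 0.08 to -0.38. Without the library of each group richest in adipocyte markers, also added afterwards, Pdk4 was at 2.02, 313 genes were higher, and the calls of Acat3, Slc16a7 and Pdk2 ended. Without the 4 libraries that of Acat3 ended.

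Replicate numbers are shared between the groups, and the animals were not treated as paired. Deviations of same-numbered libraries correlated at -0.454 to 0.212, above 0.1 in 2 of 8 pairs. Differently numbered libraries were not compared, so these values cannot show whether animals were paired. With the replicate number as a block, 200 genes were higher and 235 lower, and the calls of Acat3, Slc16a7 and Pdk2 ended, leaving 1 enzyme, 0 transporters and 1 kinase higher. For lipid genes lower, DESeq2, limma-voom and the covariate gave 1 in place of 0. Fatty acid oxidation genes lower numbered 1 by limma-voom and without the 4 libraries, and 2 with the covariate, which gave 2 branched-chain genes lower in place of 1. The 1 correlated pair of genes was 1 also with Spearman's rho and with a prior count of 0.5. Among the 6 genes, Pdk4 alone had too few counts to be tested.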
